A study of Homo sapiens with 18 samples.

Results

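The cytosolic ribosomal proteins are the protein subunits of the ribosomes that translate messenger RNA outside mitochondria. They were taken as every probe whose single gene symbol begins with RPL or RPS and a digit, or is RPLP0, RPLP1, RPLP2 or RPSA, without RPS27L, the RPS6K kinases and symbols that end in a pseudogene number. The rule found 57 genes, each with 1 probe, among 21448 probes, of which 17709 carry 1 gene symbol. Of the 57, 45 are canonical subunits out of 77 looked for, 26 of the large and 19 of the small subunit. A further 9 are paralogs, that is, related genes with restricted or uncertain use in the ribosome, and 3 are read-through transcripts that join a ribosomal protein gene to its neighbour. RPL5, RPL23, RPS3, RPS20, RPS27A, RPLP0, RPLP2 and RPSA were not analysed here. RPS19BP1, whose symbol ends in a number after P, falls outside the rule and was counted in the list of chaperones, carriers and assembly factors.

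The RNA came from OCI-AML3, an established line of human acute myeloid leukaemia cells. Cultures received HDM201 (500 nM), RG7112 (2 µM) or the solvent DMSO for 24 h, with 6 arrays in each group, 18 in all. Both compounds are MDM2 inhibitors according to the labels, which give the genotype of every group as wildtype. Each compound was given at 1 dose and 1 time to 1 cell line, and the replicates are labelled biological with no word on separate cultures, so each p reflects the spread among these arrays only.

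The small subunit reads the messenger RNA and the large subunit joins amino acids, and a cell needs the ribosomal proteins in matched amounts. When assembly is disturbed, some free ribosomal proteins, RPL5 and RPL11 first among them, bind MDM2, the ubiquitin ligase that marks p53 for destruction, and p53 protein then accumulates. Messenger RNAs of ribosomal proteins open with a terminal oligopyrimidine tract, a C followed by a run of C and T at the very first bases, through which the mTOR pathway and the RNA-binding protein LARP1 set how well they are translated. Arrays of total RNA measure the level of these messages and not their translation.

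The tract is shown for the genes on which the results turn, since it is the sequence feature that most of these messages share. The promoter table of RefSeq (GRCh38.p14) holds 41 of the 45 canonical genes and 7 of the 9 paralogs. The windows below run from 20 bases before the annotated start to 10 bases from it, 30 bases in all, in the direction of transcription. Capitals mark the nearest tract of C followed by at least 4 pyrimidines, as far as it lies in the window. RPS19, RPL29 and RPL10A are the genes that rose, RPL11 binds MDM2, and RPS26 was the lowest canonical member. RPL31 was the next highest canonical member with HDM201, and RPS14 was next after RPS19 with RG7112. With HDM201, RPL9 (0.15) and RPL19 (0.15) lay between RPL31 (0.17) and RPS14 (0.14). Their windows are not shown, and neither had the tract exactly at an annotated start. RPL22, RPL22L1 and RPL7L1 allow paralogs to be set against canonical genes.
RPS19, one of 2 annotated starts (chr19:41860235-41860264, plus strand): gcccgggaaaccccgtcgttCCCTTTCCCC
RPL29 (chr3:51995886-51995915, minus strand): tgctgcaccgcagcccctttCTCTTCCggt
RPL10A (chr6:35468381-35468410, plus strand): gcgcatgcgcaagacatgctagtCTCTTTT
RPL31 (chr2:101002269-101002298, plus strand): ctcccacaatccttcgcgctCTTCCTTTCC
RPS14 (chr5:150449730-150449759, minus strand): tcgctccgccccctcccactCTCTCTTTCC
RPL11, one of 2 annotated starts (chr1:23691786-23691815, plus strand): tcggccggaagctccgctttCTCTTCCTgc
RPS26 (chr12:56041898-56041927, plus strand): gctgggagacacataacctcgattttCTTC
RPL22 (chr1:6199586-6199615, minus strand): ctgcgtagttcgctcacctcCCTTTCTaac
RPL22L1 (chr3:170870186-170870215, minus strand): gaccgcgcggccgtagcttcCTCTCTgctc
RPL7L1 (chr6:42879596-42879625, plus strand): cgcgccggaagtgcggcgccgtagctagga
In RPS19, RPL29, RPL31, RPS14, RPL11, RPL22 and RPL22L1 the tract begins at the annotated start shown. At the other annotated start of RPS19 the nearest tract begins 5 bases before it. In RPL10A it begins 3 bases after the annotated start and in RPS26 6 bases after it. The RPL7L1 window holds no such tract.

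Most canonical genes had the tract at their annotated start. Of the 41 canonical genes in the table, 30 (73.2%) had a C followed by at least 4 pyrimidines exactly at an annotated start, read on the transcript strand only. Over all 27305 genes of the table the share was 5.14%. Of 13 other measured genes described as carrying the tract, 7 were in the table and 5 of these 7 (71.4%) had it. The paralogs had it in 2 of 7 genes (28.6%) and the mitochondrial ribosomal proteins in 4 of 66 (6.06%). Allowing the tract to begin up to 10 bases from the start raised the shares to 90.2% of canonical genes and 38.4% of all genes. At the annotated start itself 78.3% of the 46 canonical starts were C or T, against 21.9% of all starts, as the plot of pyrimidines by position shows. These counts describe annotated letters, and no start was measured in these cells.

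**Figure D1:**
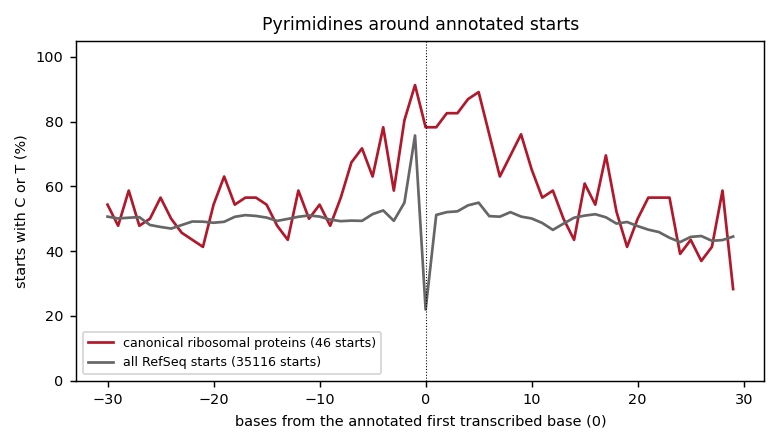
Percent of annotated starts with C or T at each position, by distance in bases from the start, for canonical ribosomal protein genes and for all genes of the RefSeq promoter table. The canonical line stands at 78.3% at the start, where the line for all genes drops to 21.9%, and at 89.1% against 55.0% 5 bases after it.

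The p53 targets CDKN1A and MDM2, taken as a check of the treatment, rose with both compounds. CDKN1A, the gene of the cell cycle brake p21, rose by 4.10 on the log2 scale with HDM201 and by 3.97 with RG7112, and MDM2 rose by 2.58 with HDM201 and 2.57 with RG7112. Array medians lay between 6.44 and 6.57. Of the marker lists, 8 of 10 myeloid markers were measured, with array means of 8.45 to 8.73 with HDM201, 8.47 to 8.73 with RG7112 and 8.15 to 8.35 with DMSO. ITGAM differed most among them, by 2.18 with HDM201 and 2.09 with RG7112. The other measured myeloid markers differed by -0.03 to 0.38 with HDM201 and by -0.22 to 0.34 with RG7112. The 5 lymphocyte markers measured had array means of 4.53 to 4.82 with HDM201, 4.62 to 4.76 with RG7112 and 4.45 to 4.67 with DMSO. The 4 erythroid markers measured had 6.38 to 6.69 with HDM201, 6.40 to 6.91 with RG7112 and 6.32 to 6.60 with DMSO, and the 7 epithelial and fibroblast markers had 5.59 to 5.77 with HDM201, 5.63 to 6.02 with RG7112 and 5.63 to 5.83 with DMSO. RG7112 replicate 3 stood apart from all other arrays, with an interquartile range of 3.45 against 3.70 to 3.91 (log2), and the main values that move with it are also given without it.

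That array held the lowest ribosomal protein signals of its group. Its mean over the 45 canonical members was 11.83, against 12.17 or more on the other RG7112 arrays. It lay below all 5 other RG7112 arrays in 38 of the 45 canonical members (84.4%), in 1058 of 1726 probes with a mean signal of 10 or more (61.3%) and in 30.8% of all probes. The median gap to the mean of the other 5 arrays was -0.33 over canonical members, -0.25 over the bright probes and 0.01 over all probes. The gap was widest for RPS15, at 11.47 against 12.66 to 12.84, then for RPS26, at 10.90 against 11.91 to 12.19, and for RPL18, at 11.53 against 12.38 to 12.59. RPL7, RPL9, RPLP1, RPS6, RPS14, RPS19 and RPS24 were the canonical members in which it was not the lowest of its group. With array weights, a setting that counts deviant arrays less, 48 of the 57 genes were above 0 with RG7112 against DMSO (median 0.07), and after a further quantile normalization 34 were (median 0.04).

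**Figure D2:**
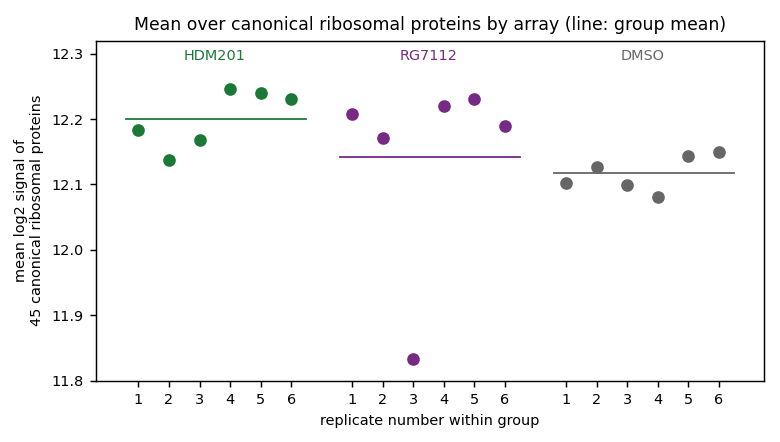
Mean log2 signal over the 45 canonical ribosomal proteins on each of the 18 arrays, by group, with a bar at the group mean. RG7112 replicate 3 lies at 11.83, while the other arrays of the 3 groups lie between 12.08 and 12.25.

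The canonical messages lay at nearly the same level in the 3 groups. The mean over the 45 was 12.20 ± 0.04 with HDM201, 12.14 ± 0.15 with RG7112 and 12.12 ± 0.03 with DMSO (log2 signal, SD over n = 6 arrays each). The HDM201 arrays ran from 12.14 to 12.25 and the RG7112 arrays from 11.83 to 12.23 with a median of 12.20, while the DMSO arrays ran from 12.08 to 12.15. The HDM201 range thus overlapped the DMSO range only at its low end, and 5 of the 6 RG7112 arrays lay above every DMSO array. In RNA from whole cultures, fewer cells of a kind and less RNA per cell cannot be told apart.

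Differences were tested with limma over all 18 arrays, and a gene is said to have risen or fallen where its p stayed under 0.05 after Benjamini-Hochberg adjustment across the 21448 probes. With HDM201 against DMSO, 3 of the 57 genes rose (RPS19, RPL29 and RPL10A), 1 fell (RPL39L) and 53 did not pass. Over all probes 18.8% passed in this comparison, 9.16% upward and 9.64% downward, and among the probes with a mean signal of 10 or more 30.9% did. The share of the ribosomal proteins that passed was 7.02%. With RG7112 against DMSO, RPS19 rose, RPL39L fell and 55 did not pass, where 17.5% of all probes passed, 7.9% upward and 9.61% downward, and 27.6% of the bright ones, against 3.51% of the ribosomal proteins. The fit without RG7112 replicate 3 gave 5 that rose and 2 that fell with HDM201 (24.3% of all probes passed), and 3 that rose and 1 that fell with RG7112 (16.5% of all probes). That array belongs to neither HDM201 nor DMSO. The HDM201 differences from DMSO thus stayed the same, and only the spread shared by the groups and the adjusted p changed. Before adjustment 7 of the 57 had p under 0.05 with HDM201, where 29.1% of all probes had, and 8 with RG7112, where 30.5% had. No difference exceeded 1 on the log2 scale, and 50 of the 57 were within 0.2 of 0 with either compound.

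The sizes were small and, with HDM201, mostly positive. The median difference over the 57 genes was 0.08 with HDM201, against 0.02 over all probes, and 50 of 57 were above 0. Among the canonical members 43 of 45 were above 0, where 55.2% of all probes were, and the differences ran from -0.19 for RPS26 to 0.31 for RPS19. With RG7112 the median was 0.02 over the 57, against 0.03 over all probes, and 33 were above 0. Once RG7112 replicate 3 was left out, the RG7112 median became 0.08 with 51 of 57 above 0. After subtraction of each array's median the signs shifted: 40 of 57 stayed above 0 with HDM201, with a median of 0.04, and 23 of 57 with RG7112, with a median of -0.03.

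**Figure D3:**
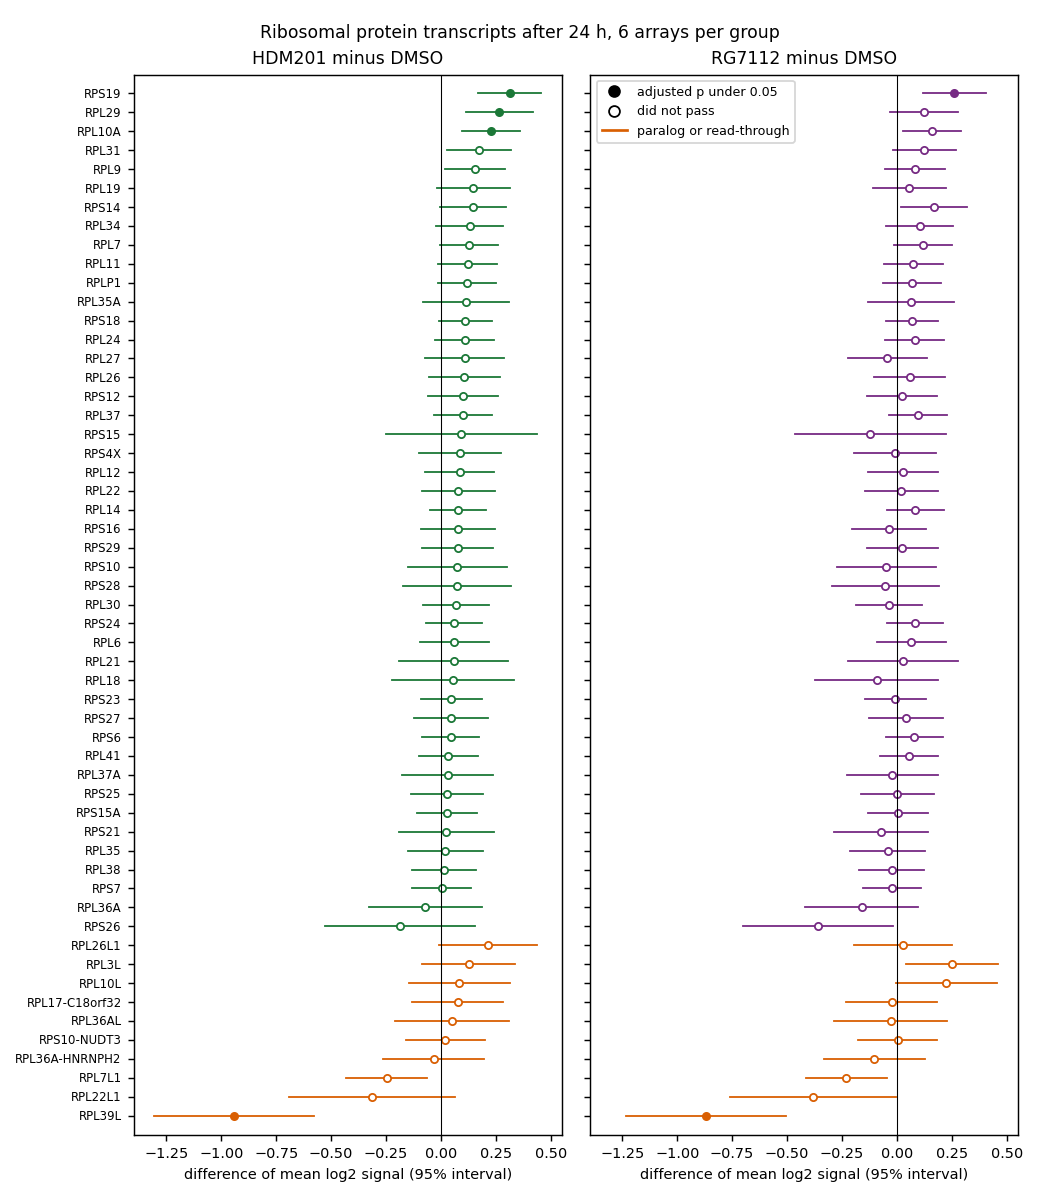
Difference from DMSO in log2 signal for the ribosomal protein genes other than RPS4Y1 and RPS4Y2, with 95% intervals from the limma fit, for HDM201 and RG7112; filled points passed, and paralogs and read-through probes stand in orange at the bottom. The differences crowd within 0.2 of 0, and RPL39L stands apart at -0.94 with HDM201 and -0.87 with RG7112.

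The limma intervals give the range of differences that these arrays allow. With HDM201 the 95% intervals of 44 of the 45 canonical members lay within 0.5 of 0, and the widest reach was from -0.53 to 0.46. With RG7112 they reached from -0.70 to 0.40. The residual SD had a median of 0.11 over canonical members, against 0.19 over all probes of any brightness. The canonical signals lie in the high part of a scale whose highest value per array was 13.35 to 13.53. Whether this narrows their differences and intervals was not tested. All 57 genes entered the test, since no filter on low values was set.

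RPS19, a small subunit protein needed to mature the 18S rRNA end and the gene most often mutated in Diamond-Blackfan anaemia, was the gene that rose with both compounds. Its log2 signals were 12.25, 12.47 and 12.53 (lowest, median and highest of 6) with HDM201, 12.24, 12.40 and 12.53 with RG7112, and 12.04, 12.14 and 12.20 with DMSO. Every array of either compound lay above every DMSO array. It rose by 0.31 ± 0.07 (SE) with HDM201, which is 1.24-fold, with limma adjusted p = 0.00214, and by 0.26 within replicates 1 to 3 and 0.37 within replicates 4 to 6. With RG7112 it rose by 0.26 ± 0.07, or 1.20-fold, with limma adjusted p = 0.0105, and by 0.25 and 0.27 within the same sets. Without RG7112 replicate 3 the RG7112 difference was also 0.26.

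The other Diamond-Blackfan genes measured were RPS24, RPS10 and RPL35A, and none of them passed. RPS24 differed by 0.06 with HDM201 and 0.08 with RG7112, RPS10 by 0.07 with HDM201 and -0.05 with RG7112, and RPL35A by 0.11 with HDM201 and 0.06 with RG7112. The RG7112 differences without replicate 3 were 0.08 for RPS10 and 0.11 for RPL35A.

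RPL29, a small basic protein of the large subunit, rose with HDM201. Its signals were 10.75, 10.87 and 10.95 with HDM201, 10.49, 10.76 and 10.80 with RG7112, and 10.45, 10.61 and 10.70 with DMSO. All HDM201 arrays were above all DMSO arrays, while the RG7112 arrays overlapped them. It rose by 0.27 ± 0.07 with HDM201 (1.20-fold, limma adjusted p = 0.0127), by 0.30 within replicates 1 to 3 and 0.23 within replicates 4 to 6. With RG7112 the difference was 0.12 ± 0.07 (limma adjusted p = 0.270), and HDM201 minus RG7112 was 0.14 with a 95% interval of -0.01 to 0.30, so the compounds were not shown to differ.

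RPL10A, a large subunit protein near the exit site for transfer RNA, gave a like picture. Its signals were 11.15, 11.18 and 11.26 with HDM201, 10.96, 11.15 and 11.24 with RG7112, and 10.90, 10.97 and 11.04 with DMSO. The HDM201 arrays again cleared the DMSO range, and the lowest RG7112 array, replicate 3, lay inside it. RPL10A rose by 0.23 ± 0.06 with HDM201 (1.17-fold, limma adjusted p = 0.0142; 0.18 and 0.28 within the sets), and the call was lost when array medians were subtracted (adjusted p = 0.0683). With RG7112 it differed by 0.16 ± 0.06 (limma adjusted p = 0.0924), and by 0.19 without RG7112 replicate 3, where it passed (adjusted p = 0.0230).

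**Figure D4:**
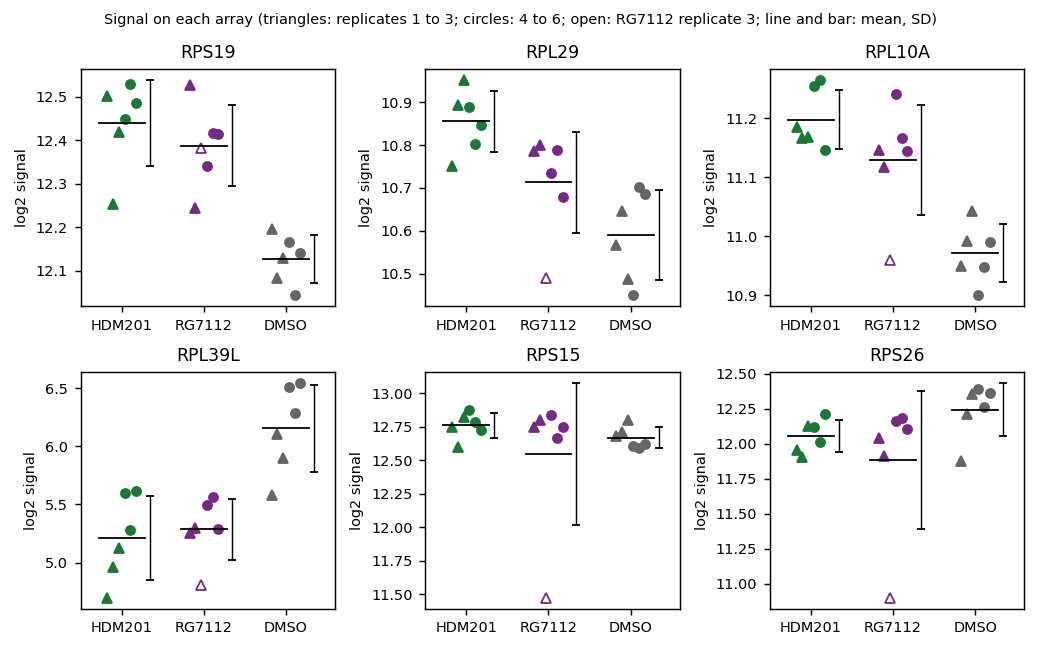
Log2 signal on each array for named ribosomal protein genes, with HDM201, RG7112 and DMSO from left to right, replicates 1 to 3 and 4 to 6 as triangles and circles, RG7112 replicate 3 as an open symbol, a line at the mean and a bar of 1 SD to either side. In RPS19 both compounds lie wholly above DMSO, and in RPL39L the DMSO arrays run from 5.58 to 6.55 against 4.70 to 5.61 with HDM201 and 4.81 to 5.56 with RG7112.

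Of the 26 large subunit genes RPL29 and RPL10A rose with HDM201 and 0 passed with RG7112, where 9.16% of all probes rose with HDM201 and 7.9% with RG7112. The median was 0.10 with HDM201, with 25 of 26 above 0, and 0.06 with RG7112, with 19 of 26 above 0 (0.11 and 25 of 26 without RG7112 replicate 3). RPL31, which sits near the tunnel through which new proteins leave, had 11.86, 11.93 and 11.98 with HDM201, 11.62, 11.92 and 11.98 with RG7112, and 11.67, 11.76 and 11.81 with DMSO. It differed by 0.17 ± 0.07 with HDM201 (limma adjusted p = 0.0924) and 0.13 with RG7112 (limma adjusted p = 0.234). HDM201 arrays did not overlap the DMSO arrays. Without RG7112 replicate 3 RPL31 passed with HDM201 at an unchanged difference (adjusted p = 0.0265) and with RG7112 (0.18, adjusted p = 0.0441). RPL19 also passed with HDM201 in that setting (0.15, adjusted p = 0.0473). RPL31 passed with HDM201 too with a robust prior, with array weights, without the dimmer 50 percent of probes, and over the 12 arrays compared.

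Other named large subunit genes did not pass, though the HDM201 arrays of RPL9 and RPL7 lay above all DMSO arrays. RPL9 differed by 0.15 with HDM201 and 0.08 with RG7112, and RPL7 by 0.13 with HDM201 and 0.12 with RG7112. RPL18 differed by 0.05 with HDM201 and -0.09 with RG7112, and RPL27 by 0.11 with HDM201 and -0.04 with RG7112. With replicate 3 left out, the RG7112 difference was 0.07 for RPL18 and 0.04 for RPL27. RPLP1, an acidic protein of the stalk that recruits elongation factors, had 12.40, 12.50 and 12.54 with HDM201, 12.34, 12.47 and 12.49 with RG7112, and 12.26, 12.36 and 12.49 with DMSO, and its differences of 0.12 with HDM201 (limma adjusted p = 0.231) and 0.07 with RG7112 (limma adjusted p = 0.501) did not pass.

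The small subunit spanned both ends of the canonical range. RPS19 was the 1 of 19 that rose with either compound, and the median was 0.07 with HDM201 and 0.00 with RG7112 (0.08 without RG7112 replicate 3). RPS14, a protein of the small subunit platform and one of the genes lost in the 5q minus syndrome, had 10.94, 10.96 and 11.11 with HDM201, 10.82, 11.04 and 11.17 with RG7112, and 10.75, 10.85 and 10.93 with DMSO. It differed by 0.14 with HDM201 (limma adjusted p = 0.191) and 0.17 ± 0.07 with RG7112 (limma adjusted p = 0.114), and HDM201 arrays lay above all DMSO arrays. RPS6, the classical target of the S6 kinases, differed by 0.04 with HDM201 and 0.08 with RG7112.

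RPS26 and RPS15 were the small subunit genes with the widest gap between RG7112 replicate 3 and its group. RPS26, which contacts messenger RNA upstream of the start codon, had 11.91, 12.07 and 12.22 with HDM201, 10.90, 12.08 and 12.19 with RG7112, and 11.88, 12.31 and 12.39 with DMSO. It was the lowest canonical difference with both compounds, at -0.19 with HDM201 (limma adjusted p = 0.515) and -0.36 ± 0.16 with RG7112 (limma adjusted p = 0.143), and did not pass. Without RG7112 replicate 3 the RG7112 difference was -0.16 (adjusted p = 0.265). RPS15, a protein of the small subunit head, had 12.60, 12.77 and 12.88 with HDM201, 11.47, 12.75 and 12.84 with RG7112, and 12.59, 12.65 and 12.80 with DMSO. Its RG7112 difference of -0.12 turned to 0.09 without that array, next to 0.09 with HDM201.

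**Figure D5:**
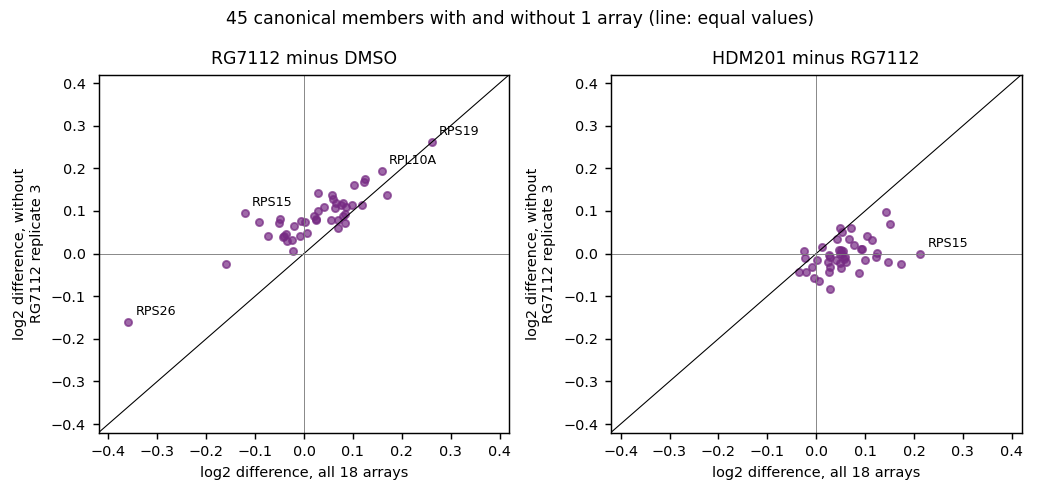
Difference in log2 signal for each of the 45 canonical ribosomal proteins, computed with all arrays (x axis) and without RG7112 replicate 3 (y axis), for RG7112 minus DMSO and HDM201 minus RG7112, with a diagonal of equal values. RPS15 moves from -0.12 to 0.09 in the comparison with DMSO and from 0.21 to 0.00 between the compounds.

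The ribosomal proteins described as binding MDM2 or acting on p53 did not pass in any comparison. Of 14 listed, 9 were measured, and 0 of 9 passed with HDM201 (median 0.09; 18.8% of all probes passed) or RG7112 (median 0.04; 17.5% of all probes). RPS14, RPS15 and RPS26, given above, belong to the 9. The differences ran from -0.19 for RPS26 to 0.14 for RPS14 with HDM201. With RG7112 they ran from -0.36 for RPS26 to 0.17 for RPS14 (-0.16 and 0.14 without RG7112 replicate 3). Before adjustment, limma p was under 0.05 for 0 of 9 with HDM201 (29.1% of all probes) and 2 of 9 with RG7112 (30.5%). RPL11, the partner of RPL5 and the best studied of these MDM2 binders, had 11.89, 11.98 and 12.07 with HDM201, 11.73, 11.94 and 12.01 with RG7112, and 11.81, 11.84 and 11.92 with DMSO. The groups overlapped, and the differences were 0.12 ± 0.06 with HDM201 (limma adjusted p = 0.224; 95% interval -0.01 to 0.26) and 0.08 with RG7112 (limma adjusted p = 0.464; -0.06 to 0.21). RPL26, a protein of the large subunit, had 12.24, 12.31 and 12.35 with HDM201, 11.91, 12.34 and 12.37 with RG7112, and 12.12, 12.20 and 12.28 with DMSO, and differed by 0.11 with HDM201 and 0.06 with RG7112. RPL37 differed by 0.10 with both compounds. With HDM201, RPS7 differed by 0.00, RPS25 by 0.03 and RPS27 by 0.05, and with RG7112 they differed by -0.02, 0.00 and 0.04 (0.01, 0.07 and 0.11 without RG7112 replicate 3). Without that array RPL26 differed by 0.13 and RPL11 by 0.11 with RG7112.

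RPS27 contrasts with RPS27L, its p53-induced paralog, which the rule leaves out and which was measured as a check. RPS27 had 12.48, 12.67 and 12.69 with HDM201, 12.28, 12.68 and 12.79 with RG7112, and 12.51, 12.60 and 12.66 with DMSO. RPS27L had 10.41, 10.61 and 10.75 with HDM201, 10.30, 10.63 and 11.16 with RG7112, and 9.05, 9.52 and 10.08 with DMSO. All treated arrays of RPS27L lay above all DMSO arrays, and it rose by 1.03 with HDM201 (limma adjusted p = 1.52e-04) and by 1.10 with RG7112 (limma adjusted p = 1.10e-04), while the RPS27 arrays overlapped between groups.

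The paralogs included the one gene that fell. RPL39L, a copy of RPL39 known from testis and from tumours, had 4.70, 5.20 and 5.61 with HDM201, 4.81, 5.29 and 5.56 with RG7112, and 5.58, 6.20 and 6.55 with DMSO. With RG7112 all arrays lay below all DMSO arrays, and with HDM201 4 of 6 did. It fell by 0.94 with HDM201 (SE 0.17, 1.92-fold lower, limma adjusted p = 4.46e-04), with -0.94 and -0.95 within the replicate sets. With RG7112 it fell by 0.87 (SE 0.17, 1.83-fold lower, limma adjusted p = 0.00124), with -0.74 and -1.0 within the sets. Among the DMSO arrays themselves, replicates 1 to 3 were lower than replicates 4 to 6 by a difference of -0.58 (limma adjusted p = 0.224), and the signals lie in the low part of a scale whose lowest value per array was 2.66 to 2.85.

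RPL7L1, which acts in assembly of the large subunit, lay near the threshold: it did not pass over all 18 arrays and passed in some alternatives. It had 9.65, 9.85 and 9.91 with HDM201, 9.61, 9.82 and 10.11 with RG7112, and 9.84, 10.12 and 10.17 with DMSO. The groups overlapped, and the differences were -0.25 ± 0.09 with HDM201 (limma adjusted p = 0.0565) and -0.23 ± 0.09 with RG7112 (limma adjusted p = 0.0795). It passed with HDM201 without RG7112 replicate 3 (adjusted p = 0.0384), with the replicate number as a block (adjusted p = 0.0237 with HDM201 and 0.0365 with RG7112) and with the replicate sets as a covariate (0.0283 with HDM201 and 0.0437 with RG7112). It did not pass after a further quantile normalization (0.0819 with HDM201 and 0.214 with RG7112). RPL7 itself was above 0 with both compounds without passing, so the pair lay on opposite sides of 0.

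RPL22 and RPL22L1 form a pair in which RPL22 protein is known, from mice, to hold down RPL22L1. RPL22 had 12.31, 12.45 and 12.52 with HDM201, 12.04, 12.42 and 12.56 with RG7112, and 12.28, 12.38 and 12.45 with DMSO, and differed by 0.08 with HDM201 and 0.02 with RG7112 (0.09 without replicate 3). RPL22L1 had 8.51, 8.89 and 9.44 with HDM201, 8.04, 8.92 and 9.29 with RG7112, and 8.89, 9.29 and 9.41 with DMSO. Its differences of -0.31 ± 0.18 with HDM201 (limma adjusted p = 0.274) and -0.38 ± 0.18 with RG7112 (limma adjusted p = 0.161) did not pass, and within replicates 1 to 3 and 4 to 6 they were -0.59 and -0.04 with HDM201 and -0.58 and -0.18 with RG7112. Once RG7112 replicate 3 was left out, the RG7112 difference was -0.22 (adjusted p = 0.377). Within replicates 1 to 3 without that array, an alternative chosen after seeing the data, RPL22L1 passed with HDM201 (-0.59, limma adjusted p = 0.00772).

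The remaining paralogs did not pass. RPL26L1 differed by 0.21 with HDM201 and 0.03 with RG7112, and RPL36AL by 0.05 with HDM201 and -0.03 with RG7112. RPL36A, the X-linked relative of RPL36AL, differed by -0.07 with HDM201 and -0.16 with RG7112. Leaving out RG7112 replicate 3 gave RG7112 differences of 0.10 for RPL26L1, 0.12 for RPL36AL and -0.03 for RPL36A. RPL3L, a form of heart and skeletal muscle, differed by 0.13 with HDM201 (limma adjusted p = 0.462) and 0.25 ± 0.10 with RG7112 (limma adjusted p = 0.0940; 0.16 without replicate 3). RPL10L, a testis form, differed by 0.08 with HDM201 (limma adjusted p = 0.695) and 0.23 with RG7112 (limma adjusted p = 0.173). Its RG7112 signals were low, at 5.35 in replicate 3 and 4.81 to 5.19 on the other arrays. Without replicate 3 its RG7112 difference was 0.16 (limma adjusted p = 0.347). RPS4Y1 differed by -0.12 with HDM201 and -0.09 with RG7112 (0.03 without replicate 3). The 3 read-through probes, RPL36A-HNRNPH2, RPL17-C18orf32 and RPS10-NUDT3, ranged from -0.03 to 0.08 with HDM201 and from -0.10 to 0.00 with RG7112 (0.02 to 0.09 without replicate 3), and share sequence with RPL36A, RPL17 and RPS10. Many ribosomal protein genes have near-identical copies elsewhere in the genome, so a probe's signal may hold more than 1 source.

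Whole groups without overlap were counted as a check that needs no model. With HDM201, 9 of the 57 genes had no overlap with DMSO (RPL7, RPL9, RPL10A, RPL19, RPL29, RPL31, RPS14, RPS18 and RPS19), where 13.6% of all probes had none. With RG7112 these were 2 of 57, RPS19 and RPL39L, where 9.9% of all probes had none. The HDM201 count is close to the share over all probes. Its list holds no paralog, and each of its 9 genes was higher with HDM201, but the share over all probes was not split by direction.

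HDM201 and RG7112 were given at different doses, and no ribosomal protein separated them. In limma 0 of 57 genes passed, the smallest adjusted p was 0.991, 0 had an unadjusted p under 0.05 and 0 had groups without overlap, where 0.0839% of all probes had none. Over all probes 0 passed and 749 had an unadjusted p under 0.05. The median of HDM201 minus RG7112 over canonical members was 0.05 with 39 of 45 above 0, and the intervals reached from -0.22 to 0.56. Without RG7112 replicate 3 the median was -0.01 with 18 of 45 above 0, and the intervals reached from -0.28 to 0.24. The highest differences, 0.21 for RPS15, 0.19 for RPL26L1, 0.17 for RPS26 and 0.15 for each of RPL27 and RPL18, became 0.00, 0.11, -0.02, 0.07 and -0.02 without that array.

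The responses were also taken within replicates 1 to 3 and within replicates 4 to 6. The median difference from DMSO over canonical members was 0.05 in the first set and 0.11 in the second with HDM201, and -0.04 in the first set and 0.09 in the second with RG7112. The first set without RG7112 replicate 3 gave 0.07 with RG7112, with 40 of 45 above 0. In a limma fit with the sets, 0 of 57 genes differed in their response between the sets for either compound, where 0.149% of all probes did with HDM201 and 0.0373% with RG7112. Between the DMSO arrays of the sets 0 of 57 differed, where 0.303% of all probes did.

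The canonical members were set side by side by their annotated start, with no test. The 30 canonical genes with it had a median of 0.08 with HDM201 and 0.05 with RG7112. The 11 without it had 0.09 with HDM201 and -0.01 with RG7112. With RG7112 replicate 3 left out, the RG7112 medians were 0.08 with the tract and 0.08 without it. FAU, which encodes a small subunit protein under another name, differed by 0.16 with HDM201 (limma adjusted p = 0.441) and 0.01 with RG7112 (limma adjusted p = 0.958; 0.15 without replicate 3, which read 9.54).

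Of 18 other messages described as carrying the tract, 13 were measured, of which 2 rose with HDM201 (9.16% of all probes rose) and 1 with RG7112 (7.9% of all probes). EIF3H, a subunit of an initiation factor, rose by 0.29 with HDM201 (limma adjusted p = 0.00879) and by 0.25 with RG7112 (limma adjusted p = 0.0244), and EIF3F, another subunit of it, rose by 0.28 with HDM201 (limma adjusted p = 0.0329) and differed by 0.19 with RG7112, where it passed without replicate 3 (0.27, adjusted p = 0.0110).

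Among the 16 regulators of such messages, 4 fell with HDM201 (9.64% of all probes fell), 3 fell with RG7112 (9.61% of all probes) and none rose. In the fit without RG7112 replicate 3, 7 fell with HDM201 and 2 with RG7112, where 2663 of all 21448 probes fell with HDM201 and 1851 with RG7112. EIF4EBP1, the mTOR-controlled inhibitor of the cap-binding protein, had signals of 8.54, 8.92 and 9.33 with HDM201, 8.03, 9.19 and 9.37 with RG7112, and 9.61, 10.18 and 10.26 with DMSO. No treated array reached the DMSO range, and EIF4EBP1 fell by 1.15 with HDM201 (limma adjusted p = 2.01e-04) and by 1.11 with RG7112 (limma adjusted p = 3.72e-04). Without RG7112 replicate 3 its RG7112 difference was -0.92 (limma adjusted p = 2.41e-04). MLST8, a subunit of the mTOR complexes, fell by 0.36 with HDM201 and 0.35 with RG7112, and HNRNPD, an RNA-binding protein, fell by 0.31 with HDM201 and 0.27 with RG7112. The MLST8 call with RG7112 was lost without RG7112 replicate 3 (-0.27, adjusted p = 0.0789). EIF4E, the cap-binding protein, fell by 0.28 with HDM201 (limma adjusted p = 0.0373) and differed by -0.24 with RG7112 (limma adjusted p = 0.0762).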

How the data were processed

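RNA of 18 samples of OCI-AML3 cells was measured on arrays. The authors deposited log2 signals made with the oligo package and RMA, per the submitters' processing notes; the sources used here give neither versions nor a genome build. Probe symbols came from the platform annotation: 17709 probes had 1 symbol, 0 several and 3739 none. No signal was altered or filtered. Array correlations of 0.952 to 0.996 and 6 arrays per group limit the precision.

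The model, in limma 3.58.1 under R 4.3.3, gave each of the 3 groups its own mean on 18 arrays, with lmFit and eBayes at their defaults, and p-values took Benjamini-Hochberg adjustment across 21448 probes with a threshold of 0.05. The fitting steps were tested on simulated data. The members and lists were chosen with earlier results of these data known. The text names the 6 highest and lowest members per comparison, a fixed list of 36 genes of which 24 were measured, giving 32 members in all, and up to 3 passing genes of each other list. RPL19, RPS18 and the read-through probes were named after their values were seen. Same-numbered arrays of HDM201 and RG7112 all correlated over 0.1 in their deviations from the group means, a hint of pairing. For replicates 2 and 3 of these groups the own number was not the best match. Between either compound and DMSO 1 of 6 pairs did not correlate over 0.1. The main fit therefore took no arrays as paired, and with the replicate number as a block 0 of 57 genes passed between the compounds too. Starts come from the RefSeq promoter table (GRCh38.p14). Alternatives were a robust prior, array weights, dim-probe filters, 2 scalings, fewer arrays, the replicate block, the replicate sets and leaving out each array.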

Additional observations from a re-analysis of the deposited data

Results flagged for a closer look

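A group of 6 arrays was marked when its highest or lowest array stood far from the nearest other one relative to the whole range. Of 96 groups so examined, 16 were marked. They covered named members, though not every one, and the canonical mean, in each treatment. Chance marks about 1 in 20 groups that are independent and chosen beforehand. The 16 cannot be set against that share, because the groups share the same arrays. Some members were also named for high or low differences, which RG7112 replicate 3 itself moved. RG7112 replicate 3 accounts for 12 of the 16 marked groups, each time as the lowest array of its group. It had 11.47 for RPS15 (next 12.66), 10.90 for RPS26 (next 11.91), 11.53 for RPL18 (next 12.38), 10.28 for RPL36AL (next 11.06), 10.86 for RPL36A (next 11.61) and 12.11 for RPS10 (next 12.83). The gaps were narrower for RPS25 at 12.21 (next 12.61), RPL27 at 9.90 (next 10.26), RPL22 at 12.04 (next 12.38), RPL26 at 11.91 (next 12.25) and RPL11 at 11.73 (next 11.94). The canonical mean was 11.83 on that array (next 12.17).

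HDM201 replicate 2 was the lowest HDM201 array for RPL36A, at 11.22 (next 11.64), and for RPS27, at 12.48 (next 12.63). Among the DMSO arrays, replicate 1 was the lowest for RPS26, at 11.88 (next 12.21), and replicate 6 the highest for RPL11, at 11.92 (next 11.85).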

How the results depend on the processing

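No named call changed its direction. The median difference over the members ran from -0.05 to 0.08 with RG7112 over the alternatives, and that of HDM201 minus RG7112 was -0.01 without RG7112 replicate 3. With RG7112, where 1 gene rose and 1 fell, 3 rose with array weights or a further quantile normalization and 2 without the dimmer 50 percent of probes, and 0 rose within replicates 1 to 3, within replicates 4 to 6, or within replicates 1 to 3 without RG7112 replicate 3, an alternative chosen after seeing the data. 2 fell after subtraction of array medians, with the replicate block or with the sets as a covariate, and 0 among canonical genes alone. Leaving out 1 array gave 1 to 3 that rose, with 2 without RG7112 replicate 2 and 3 without RG7112 replicate 3, and 1 to 2 that fell, with 2 without DMSO replicate 1 or RG7112 replicate 4. With HDM201 3 rose and 1 fell. Within replicates 1 to 3, with or without RG7112 replicate 3, 0 rose, and within replicates 4 to 6 1 did. With RPL31 added, 4 rose with the robust prior, array weights, without the dimmer 50 percent of probes or over the 12 arrays compared. After subtraction of array medians 2 rose. 2 fell with the robust prior, array weights, without the dimmest probes or after subtraction of array medians. The same number fell over the 12 arrays compared, with the replicate block or with the sets as a covariate. RPL7L1 was the added gene in all of these. Within replicates 1 to 3 without RG7112 replicate 3, 2 fell and the added gene was RPL22L1. Among canonical genes alone 0 fell. Leaving out 1 array gave 3 to 5 that rose, with 5 without RG7112 replicate 3, and 1 to 2 that fell, with 2 without DMSO replicate 1 or RG7112 replicate 1, 3 or 4. Subsets with 3 replicates per group hold fewer arrays. RPS19 with HDM201 passed within replicates 4 to 6 and not within replicates 1 to 3 (adjusted p = 0.261). The additional fall with the replicate block was RPL7L1 for both compounds, and the block changed no other count. Same-numbered arrays correlated best with each other in 12 of 18 cases, a hint of pairing from the data and not from the design. Dim members such as RPL39L lie nearest to the lowest signals, and signal over background limits them.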

Other observations

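The mitochondrial ribosomal proteins, which build the separate ribosome of mitochondria, included genes that rose and more that fell. Of 74 measured, 4 rose and 12 fell with HDM201 (median -0.14), and 3 rose and 9 fell with RG7112 (median -0.16). With HDM201 the median was -0.24 within replicates 1 to 3 and -0.05 within replicates 4 to 6. With RG7112, replicate 3 included, it was -0.23 in the first set and -0.06 in the second. Over all probes 18.8% passed with HDM201 (9.16% upward, 9.64% downward) and 17.5% with RG7112 (7.9% upward, 9.61% downward). Without RG7112 replicate 3, 5 rose and 19 fell with HDM201, and 3 rose and 7 fell with RG7112 (median -0.11). In that fit 24.3% of all probes passed with HDM201 (2549 upward, 2663 downward) and 16.5% with RG7112 (1679 upward, 1851 downward). MRPL17 had 8.87, 9.02 and 9.15 with HDM201, 8.82, 9.08 and 9.22 with RG7112, and 9.50, 9.65 and 9.82 with DMSO, and fell by 0.61 with HDM201 (limma adjusted p = 9.41e-06) and 0.56 with RG7112 (limma adjusted p = 4.03e-05). MRPL21 fell by 0.51 with HDM201 (limma adjusted p = 0.00255). MRPL39 rose by 0.44 with HDM201 and by 0.40 with RG7112, and MRPL49 rose by 0.48 with HDM201 (limma adjusted p = 0.00387).

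A list of 12 genes held chaperones and carriers of ribosomal proteins together with factors of subunit assembly and maturation. NAP1L1 was also counted among the other messages described as carrying the tract. Of the 12, 1 rose and 2 fell with HDM201, and 1 rose and 3 fell with RG7112. Over all probes 18.8% passed with HDM201 and 17.5% with RG7112. In the fit without RG7112 replicate 3, 1 rose and 6 fell with HDM201, and 0 rose and 3 fell with RG7112. Of all probes 24.3% passed in that fit with HDM201 and 16.5% with RG7112. GRWD1, a chaperone of RPL3, fell by 0.47 with HDM201 (limma adjusted p = 0.0259) and by 0.50 with RG7112 (limma adjusted p = 0.0208). Its RG7112 difference was -0.39 without RG7112 replicate 3 (limma adjusted p = 0.0485). HEATR3, a carrier of RPL5, fell by 0.36 with HDM201. TSR2, the carrier of RPS26, fell by 0.59 with RG7112 (limma adjusted p = 0.0162), with a signal of 6.86 as its lowest array, and differed by -0.42 with HDM201 (limma adjusted p = 0.0904; 0.00273 without RG7112 replicate 3, where TSR2 stood at -0.40 with RG7112). PDCD2L, linked to assembly of the small subunit, fell by 0.67 with RG7112 (limma adjusted p = 0.0361; -0.41 without replicate 3) and passed with HDM201 in the fit without that array (-0.54, adjusted p = 0.00211). ZNF622, a factor of large subunit maturation, rose by 0.27 with HDM201 and 0.26 with RG7112, where the call was lost without replicate 3 (0.23, adjusted p = 0.0579).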
